A study of Rattus norvegicus with 13 samples.

Results

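The calmodulin and CaM kinase II genes examined were Calm2, Calm3, Camk2a, Camk2b, Camk2d and Camk2g, taken as every probe set whose only gene symbol in the platform annotation was one of these 6. That gave 7 probe sets, 2 for Calm2 and 1 for each other gene, of the 15633 on the array with a gene, of which 15310 carried 1 symbol (14506 genes). Each probe set pools several short probes for a transcript into 1 signal. All 7 were kept, since no filter on dim signals was applied. The genes were brought together with earlier results of the diet comparison known, in which 1 of the Calm2 probe sets had a small unadjusted p, so the differences between the diet groups are given for them as a description, without a test.

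Brain tissue without the cerebellum came from male Fischer F344 rats, an inbred strain, at 15 months of age. In the maternal fructose group (6 arrays) the mothers received a diet high in fructose through gestation and lactation, from day 1 of gestation, and in the maternal control group (7 arrays) they received a control diet over the same time. The offspring of both groups were weaned on day 20 and ate chow from then on. The labels do not name litters or say that each array came from a separate animal, so the errors given measure the spread between these samples, which may be partly technical. The tissue is bulk brain, in which fewer cells of a type and less RNA per cell cannot be told apart.

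Calmodulin is a small protein that binds calcium through EF-hand motifs and then wraps around target enzymes. Several separate genes encode the same calmodulin protein. One of its main targets in neurons is CaM kinase II, a large ring-shaped assembly of subunits that calcium-loaded calmodulin releases from autoinhibition, that phosphorylates its own subunits, and that then stays partly active after calcium has fallen. The alpha subunit (Camk2a) and the beta subunit (Camk2b, which also binds actin) predominate in forebrain neurons, where the kinase is a major protein of the postsynaptic density and is needed for long-term potentiation. The delta (Camk2d) and gamma (Camk2g) subunits are found in many tissues.

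Neuronal markers were bright in all arrays. The mean of 8 pan-neuronal genes lay between 11.80 and 11.94 on the log2 scale in maternal fructose arrays and between 11.74 and 11.87 in maternal control arrays. The mean of 6 cerebellar genes, a region the labels say was removed, lay between 7.24 and 7.42 in maternal fructose arrays and between 7.17 and 7.51 in maternal control arrays. Their means over all arrays ran from 5.64 for Gabra6, the GABA receptor subunit of cerebellar granule cells, to 8.54 for Neurod1, with 1 of 6 below 6, so absence of cerebellum cannot be read from the list. Correlations between arrays ran from 0.9852 to 0.9976. Control replicates 1 and 2 had the narrowest interquartile ranges, 2.19 and 2.15, against 2.26 to 2.50 in the other 11 arrays, so results are also given without these 2 arrays.

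All 7 probe sets were bright, each brighter on average than 92.5% or more of the 15633 probe sets. They differed widely, though, in how much they varied between arrays of a group. The level of 1 probe set cannot be set against that of another, because each has its own probes, so the spread is compared with that of the 500 probe sets nearest in mean signal. Calm3 was among the steadiest, with a within-group SD of 0.053 (log2) that exceeded 11.4% of its 500 neighbours. The Calm2 probe sets, with SDs of 0.099 (10785475) and 0.076 (10940454), exceeded 59.6% and 25.2% of their neighbours, and Camk2b, at 0.099, exceeded 52.0%. Camk2a, at 0.132, exceeded 82.2% and Camk2g, at 0.140, exceeded 79.4% of theirs. Camk2d stood apart from the other kinase genes, with an SD of 0.456, above 99.4% of its neighbours, whose median was 0.105.

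**Figure D1:**
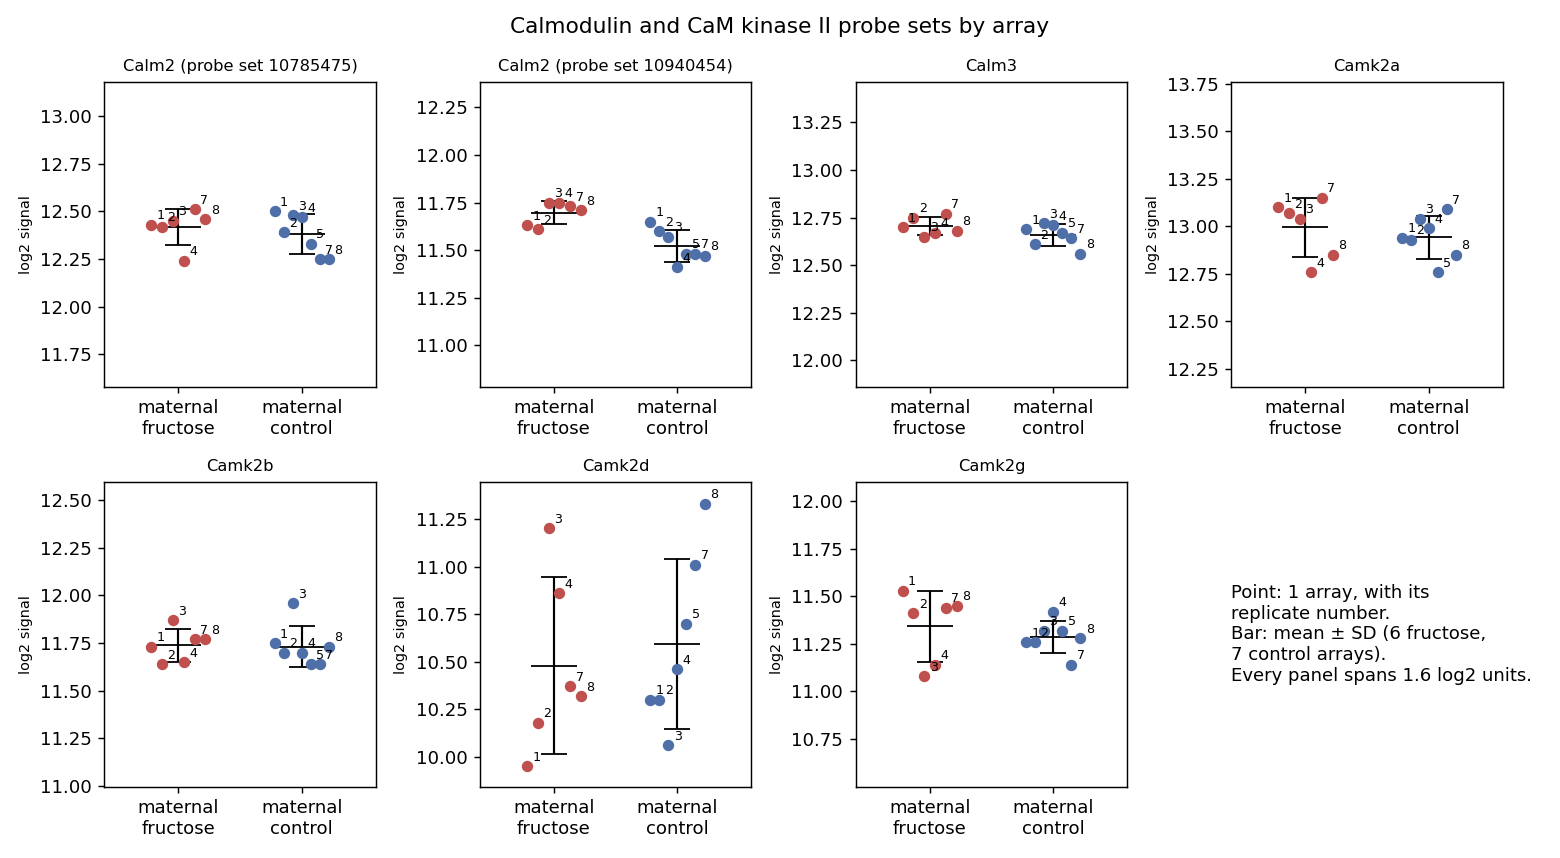
Log2 signal (vertical axis) of each calmodulin and CaM kinase II probe set in maternal fructose (left, red) and maternal control (right, blue) arrays, 1 point per array with its replicate number and bars for the mean ± SD (n = 6 and n = 7). Every panel spans the same range, and Camk2d alone spreads over more than 1 log2 unit, from 9.95 to 11.33.

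Calm2, which encodes calmodulin, was read by probe sets 10940454 and 10785475. By probe set 10940454 the lowest, median and highest signals were 11.61, 11.72 and 11.75 in maternal fructose arrays, against 11.41, 11.48 and 11.65 in maternal control arrays. All 6 fructose arrays lay above the control mean and 4 of them above every control array, while fructose replicates 1 and 2, at 11.63 and 11.61, lay within the control range, so the groups overlapped. The means were 11.70 ± 0.06 (SD, n = 6) in the maternal fructose group and 11.52 ± 0.09 (SD, n = 7) in the maternal control group, a difference of 0.17 ± 0.05 (SE) with a 95% interval from 0.07 to 0.27, or 1.13-fold (1.05 to 1.21). This was the value that brought the gene to attention. Over the whole table the limma fit called 0 of 15633 probe sets at an adjusted p of 0.05 (0% called). An unadjusted p under 0.05 in the same fit was found for 348 (2.23%). Of the 7 calmodulin and kinase probe sets 0 were called. The Calm2 difference was 0.15 after renewed quantile normalization and 0.21 without control replicates 1 and 2, whose signals of 11.65 and 11.60 were the highest of the control group.

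The other Calm2 probe set had a smaller difference. By probe set 10785475 the lowest, median and highest signals were 12.24, 12.44 and 12.51 in maternal fructose arrays, against 12.25, 12.39 and 12.50 in maternal control arrays, so the groups covered almost the same range. The means were 12.42 ± 0.09 (SD, n = 6) in the maternal fructose group and 12.38 ± 0.10 (SD, n = 7) in the maternal control group, a difference of 0.04 ± 0.06 (SE) with a 95% interval from -0.08 to 0.16. The value was 0.063 without control replicates 1 and 2 and 0.072 without fructose replicate 4, whose signal of 12.24 was the lowest of its group, and 0.012 after cyclic loess. It was 0.016, 0.015 and 0.018 without control replicate 7, control replicate 8 or fructose replicate 7, and 0.057 without control replicate 1. On the same arrays, the signal of probe set 10940454 relative to that of 10785475 was 0.14 higher on the log2 scale in the maternal fructose group than in the maternal control group, with 3 of 6 fructose arrays above every control array. Without fructose replicate 4, whose contrast was -0.50 against -0.82 to -0.70 in the other fructose arrays, it was 0.090, and it lay between 0.104 and 0.154 without any other array. This contrast contains the value of 10940454 that brought the gene to attention, so it is no separate result. The 95% intervals of the 2 probe sets overlap, but both were read on the same arrays, so that overlap cannot decide on a gap. A gap between their differences was not tested.

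Whether the probe sets follow the same transcript can be asked without the diet comparison, from how their deviations from the group means run together over the 13 arrays. For the Calm2 pair Pearson's r was 0.278 (permutation p = 0.386, 2-sided) and Spearman's rho 0.313 (permutation p = 0.324), so no shared variation was detectable with this number of arrays. The r was -0.155 within the maternal fructose group (n = 6, exact permutation p = 0.836) and 0.504 within the maternal control group (n = 7, exact permutation p = 0.237), and 0.474 without the 2 arrays farthest from the median (permutation p = 0.233). Fructose replicate 4 and control replicate 4 were the arrays where the probe sets parted most: fructose replicate 4 was among the highest of its group at 10940454 (11.75) and the lowest at 10785475 (12.24), while control replicate 4 was lowest of its group at 10940454 (11.41) and among the higher ones at 10785475 (12.47). In the annotation both probe sets carry the same RefSeq transcript of Calm2, and only 10785475 lists a second sequence accession. The array table does not say which part of the transcript each one reads.

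**Figure D2:**
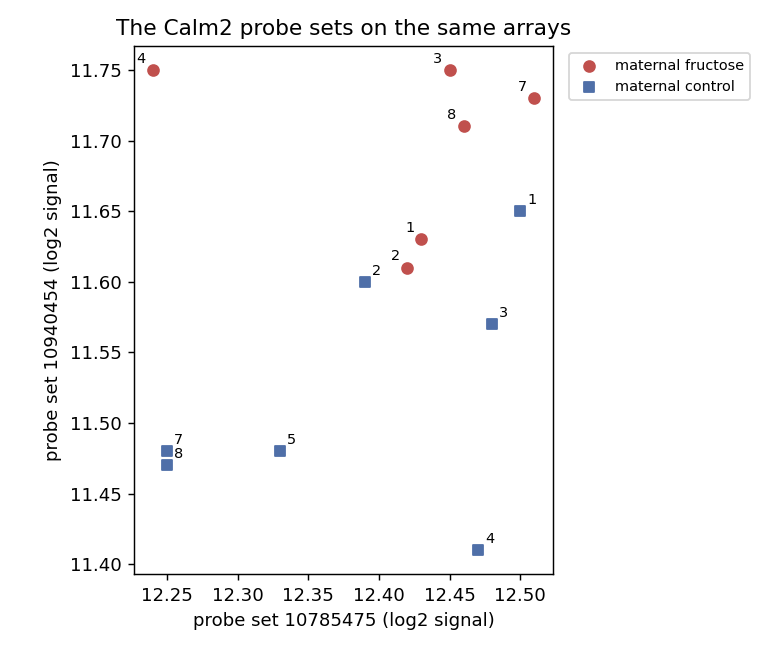
Log2 signals of the 2 Calm2 probe sets on the same arrays (horizontal 10785475, vertical 10940454; red circles maternal fructose, blue squares maternal control, with replicate numbers). The fructose arrays lie higher on the vertical axis, at 11.61 to 11.75 against 11.41 to 11.65, but not on the horizontal one, and the points follow no common line.

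Calm3, another gene of the same calmodulin protein, ran from 12.65 through a median of 12.69 to 12.77 in maternal fructose arrays, against 12.56, 12.67 and 12.72 in maternal control arrays. Fructose replicates 2 and 7 lay above every control array and the other 4 within the control range. The means were 12.70 ± 0.05 (SD, n = 6) in the fructose group and 12.66 ± 0.06 (SD, n = 7) in the control group, a difference of 0.05 ± 0.04 (SE) with a 95% interval from -0.04 to 0.13. After renewed quantile normalization it was 0.0054, after cyclic loess 0.022 and without control replicate 8 it was 0.031. Between arrays, the deviations of Calm3 had r = 0.667 with Calm2 probe set 10785475 (permutation p = 0.0197, adjusted over the 21 pairs of probe sets 0.138) and r = -0.059 with 10940454 (permutation p = 0.862, adjusted 0.904). Neither relation passed after adjustment, and the difference between them was not tested.

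Among the kinase genes, Camk2a, the neuronal alpha subunit, ran from 12.76 through a median of 13.05 to 13.15 in maternal fructose arrays, against 12.76, 12.94 and 13.09 in maternal control arrays. The difference of the means was 0.05 ± 0.07 (SE), with 12.996 ± 0.153 (SD, n = 6) in the fructose group and 12.943 ± 0.112 (SD, n = 7) in the control group and a 95% interval from -0.10 to 0.20, and it turned to -0.0065 after renewed quantile normalization. It lay between 0.022 and 0.10 with 1 array left out, being 0.022 without fructose replicate 7, 0.023 without control replicate 5, 0.033 without fructose replicate 1, 0.10 without fructose replicate 4 and 0.082 without fructose replicate 8. Fructose replicate 4 and control replicate 5 had the lowest signals of their groups, both at 12.76.

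Camk2b, the beta subunit, had its lowest, median and highest signals at 11.64, 11.75 and 11.87 in maternal fructose arrays, against 11.64, 11.70 and 11.96 in maternal control arrays. The means of 11.74 ± 0.09 (SD, n = 6) in the fructose group and 11.73 ± 0.11 (SD, n = 7) in the control group differed by 0.01 ± 0.06 (SE), the smallest difference of the 7 probe sets. Its 95% interval ran from -0.11 to 0.13, the upper end being 1.09-fold. The sign turned under both renewed normalizations (-0.013 with quantile, -0.015 with cyclic loess), with array weights (-0.0067) and without control replicate 5, control replicate 7 or fructose replicate 3 (-0.0064, -0.0061 and -0.017). It was highest, at 0.047, without control replicate 3, whose signal of 11.96 was the highest of all arrays.

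Camk2g, the gamma subunit, ran from 11.08 through a median of 11.43 to 11.53 in maternal fructose arrays, against 11.14, 11.28 and 11.42 in maternal control arrays. The fructose arrays were the more dispersed, with 3 of them above every control array and replicates 3 and 4 at 11.08 and 11.14. The means were 11.34 ± 0.19 (SD, n = 6) in the fructose group and 11.29 ± 0.08 (SD, n = 7) in the control group, a difference of 0.05 ± 0.07 (SE) with a 95% interval from -0.10 to 0.21. Leaving out fructose replicate 3 or 4 raised it to 0.11 or 0.094, and leaving out fructose replicate 1, 7 or 8 or control replicate 7 lowered it to 0.016, 0.033, 0.032 or 0.029. With cyclic loess it was 0.030, and with the arrays quantile normalized again 0.021.

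Camk2d, the delta subunit, was the member with the widest variation. Its signals were 9.95, 10.18, 11.20, 10.86, 10.37 and 10.32 in maternal fructose replicates 1, 2, 3, 4, 7 and 8. In maternal control replicates 1, 2, 3, 4, 5, 7 and 8 they were 10.30, 10.30, 10.06, 10.46, 10.70, 11.01 and 11.33. Control replicate 8 and fructose replicate 3 were the highest and fructose replicate 1 the lowest. Both groups thus held high and low arrays, and the extremes were 2.60-fold apart. The means of 10.48 ± 0.46 (SD, n = 6) in the fructose group and 10.60 ± 0.45 (SD, n = 7) in the control group differed by -0.12 ± 0.22 (SE), smaller than the spread within either group, with a 95% interval from -0.58 to 0.35. Without control replicate 8 the value was 0.0080, without fructose replicate 1 -0.0099, without fructose replicate 2 -0.055, without control replicate 7 -0.045, and without fructose replicate 3 -0.26. It was -0.20 without control replicate 3, -0.19 without fructose replicate 4, -0.21 with array weights and -0.23 without control replicates 1 and 2.

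**Figure D3:**
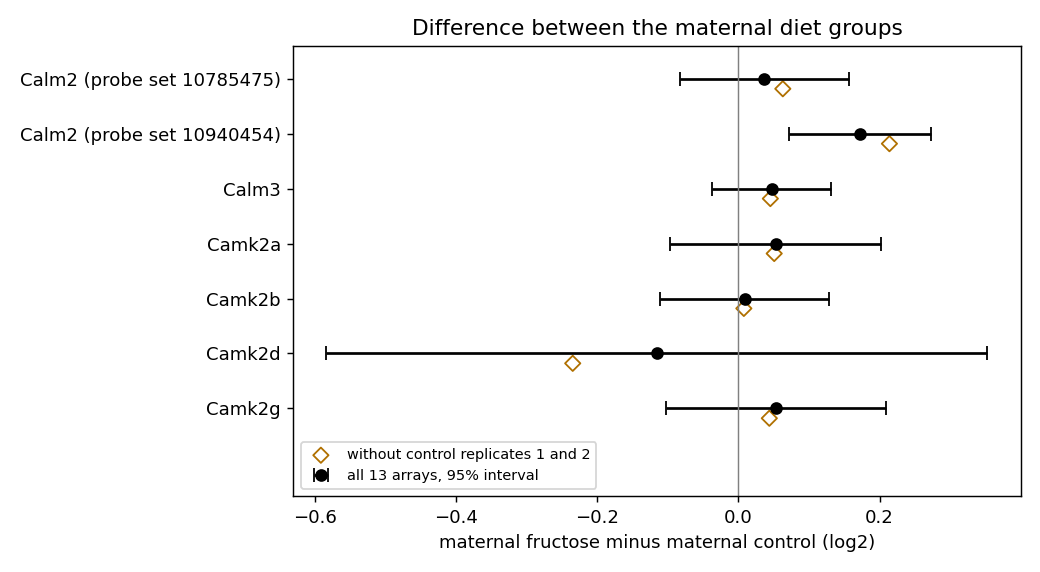
Difference between the maternal diet groups, fructose minus control, on the log2 scale (horizontal axis) for each probe set, with the 95% interval of the limma fit (black, 13 arrays) and the value without control replicates 1 and 2 (open diamonds). Camk2d has the widest interval, from -0.58 to 0.35, and Camk2b the value nearest 0.

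Over the 7 probe sets 6 were higher and 1 lower in the maternal fructose group, with a median difference of 0.047. Bright probe sets in general were shifted the same way: of the 685 with a mean signal of 11 or more, 74.7% were higher in the fructose group (median 0.024), against 54.1% of all 15633 (median 0.0056). Without control replicates 1 and 2 these shares were 59.6% and 51.4%, and the median of the 7 probe sets was 0.045. The part of this shift in the members' values was not tested.

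Camk2d had its most negative correlations with Camk2g, Calm3 and Calm2. With deviations from the group means over 13 arrays, r was -0.713 with Camk2g (permutation p = 0.00983, adjusted over the 21 pairs 0.117), -0.707 with Calm3 (permutation p = 0.0111, adjusted 0.117) and -0.641 with Calm2 probe set 10785475 (permutation p = 0.0263, adjusted 0.138). The Spearman values were -0.5 (permutation p = 0.0901), -0.577 (permutation p = 0.053) and -0.467 (permutation p = 0.128). None of the 21 pairs passed an adjusted p of 0.05 on the deposited values. The pairs of Camk2d with Calm3 and with Camk2g passed when the arrays were quantile normalized again (r = -0.829 and -0.782, permutation p adjusted to 0.0225 and 0.0306) or adjusted by cyclic loess (r = -0.853 and -0.771, permutation p adjusted to 0.0155 and 0.0363). Without the 2 arrays farthest from the median (of Camk2g in its own pair, of Camk2d in the others) r was -0.406 with Camk2g, -0.446 with Calm3 and -0.787 with Calm2, so the relations with Camk2g and Calm3 rest on those arrays. Within the maternal fructose group these values were -0.967, -0.650 and -0.299 (n = 6, exact permutation p = 0.00694, 0.16 and 0.617), and within the maternal control group -0.372, -0.756 and -0.902 (n = 7, exact permutation p = 0.414, 0.0472 and 0.00595), none of which passed after adjustment. The set of pairs was added after the data had been seen. Camk2a and Camk2b, the main forebrain subunits, did not deviate together detectably (r = 0.277, permutation p = 0.358, adjusted 0.578).

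The signal of Camk2d relative to Camk2g changed 3.24-fold between arrays. On the log2 scale this within-array contrast ran from -0.13 to 1.57 in the maternal fructose group and from -0.05 to 1.26 in the maternal control group, taken as Camk2g minus Camk2d. Only its change between arrays can be read, not its level. The start regions of these 2 genes, the pair with the most negative r, are printed for comparison, 250 bases before to 50 after the annotated start, from RefSeq on build GRCr8, with every GGGCGG or its reverse complement CCGCCC (a GC box, the site of Sp1-type factors, searched on both strands, overlapping matches counted) in capitals. Of the 6 members, 4 had an entry.
Camk2d, chr2:217698301-217698600, plus strand: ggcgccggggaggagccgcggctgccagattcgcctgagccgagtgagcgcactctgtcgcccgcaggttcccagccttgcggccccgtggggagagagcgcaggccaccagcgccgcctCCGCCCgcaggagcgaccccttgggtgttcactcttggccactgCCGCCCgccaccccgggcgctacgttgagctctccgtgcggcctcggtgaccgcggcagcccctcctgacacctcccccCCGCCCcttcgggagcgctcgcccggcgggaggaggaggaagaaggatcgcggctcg
Camk2g, chr15:3553106-3553405, plus strand: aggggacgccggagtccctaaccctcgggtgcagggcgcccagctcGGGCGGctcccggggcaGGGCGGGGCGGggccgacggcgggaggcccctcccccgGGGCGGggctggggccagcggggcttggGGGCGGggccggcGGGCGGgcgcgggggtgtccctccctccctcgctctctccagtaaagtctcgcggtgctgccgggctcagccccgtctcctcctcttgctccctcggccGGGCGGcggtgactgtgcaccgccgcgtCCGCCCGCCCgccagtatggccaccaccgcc

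Camk2d held 3 GC boxes and Camk2g 9, and their GC contents were 74.7% and 80.0%. At least 1 GC box stood in 33.1% of the 33469 start regions of this length in the table, whose median GC content was 51.7%. Camk2b, with 6 GC boxes and 81.3% GC, resembled them, while Camk2a had 0 GC boxes, 12 CpG dinucleotides and 61.3% GC, against 36 CpG dinucleotides in Camk2d, 37 in Camk2g and 59 in Camk2b. None of the 4 held the cyclic AMP response element TGACGTCA (in 1.83% of all start regions), the TATA box TATAAA (14.2%) or CCAAT (37.5%) on either strand. The array does not measure which start is used.

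The marker lists of brain regions and cell types gave a second view of this variation. Each list's level is the mean log2 signal of its measured genes, and 13 lists against 6 genes (Calm2 by probe set 10785475) made 78 relations, of which 2 passed an adjusted p of 0.05 by permutation within the groups. Camk2d rose and Calm3 fell with the list of striatal genes, 8 of 9 measured. For Camk2d r was 0.824 (permutation p = 0.00122, adjusted 0.0476) and rho 0.527 (permutation p = 0.081, adjusted 0.526). For Calm3 r was -0.807 (permutation p = 0.00065, adjusted 0.0476) and rho -0.764 (permutation p = 0.00511, adjusted 0.149). Other regional lists had large r without passing. With the interneuron, thalamus and brainstem, and excitatory neuron lists, r was 0.730, -0.721 and 0.668 for Calm3. For Camk2d the same lists gave -0.705, 0.595 and -0.526. Whether the relations are particular to striatum was not tested. Within the maternal fructose group r was 0.875 for Camk2d and -0.818 for Calm3 (n = 6, exact permutation p = 0.0222 and 0.0181), and within the maternal control group 0.792 and -0.801 (n = 7, exact permutation p = 0.0264 and 0.0331), none of which passed after adjustment. With only 6 fructose arrays a single relation of the 78 could not pass alone in that group, whatever its r.

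The mean of the striatal list stood highest in 1 array of each group. The list mean was 8.66 in fructose replicate 3 and 8.01 to 8.27 in the other fructose arrays, and 8.84 in control replicate 8 and 8.03 to 8.32 in the other control arrays. Without these 2 arrays r was 0.570 for Camk2d (permutation p = 0.086, adjusted 0.319) and rho 0.145 (permutation p = 0.691), so that relation rests on them. For Calm3, r was -0.653 (permutation p = 0.0434, adjusted 0.255) and rho -0.664 (permutation p = 0.0432, adjusted 0.288) without them, the same direction but no longer past the adjusted threshold. Within the maternal fructose group alone its rho was -1.0 (n = 6, exact permutation p = 0.00278, adjusted 0.217), so even a perfect rank order did not pass there. With 1 array left out, r for Camk2d stayed between 0.751 and 0.878 and passed after adjustment in 2 of 13 cases, and r for Calm3 stayed between -0.885 and -0.661 and passed in 3 of 13. Control replicate 8 was extreme in other lists too. Of all arrays it had the lowest excitatory mean (8.79) and the highest thalamus and brainstem (7.69), astrocyte (10.87) and microglia (9.07) means.

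Within the striatal list the genes did not all follow Camk2d alike. Penk, the precursor of the enkephalin peptides, had 10.55 in fructose replicate 3 and 9.23 to 9.96 in the other fructose arrays, and 11.12 in control replicate 8 and 9.34 to 9.98 in the other control arrays. Its deviations correlated with those of Camk2d at r = 0.887 over 13 arrays and 0.822 without those 2, given as a description. Drd1, the D1 dopamine receptor of striatal projection neurons, was at 8.70 in fructose replicate 3 and 8.85 in control replicate 8, with r of 0.865 and 0.688. Ppp1r1b, which encodes the dopamine-regulated phosphatase inhibitor DARPP-32, had r of 0.620 over all arrays and 0.003 without those 2, Pde10a 0.466 and 0.046, and Adora2a, an adenosine receptor gene, 0.592 and 0.155. Rgs9, a regulator of G-protein signalling, had 0.746 and 0.384, Drd2, the D2 dopamine receptor, 0.536 and 0.408, and Isl1, a transcription factor, 0.363 and -0.339, the only one of the 8 to turn. Slc17a6, the vesicular glutamate transporter of thalamus and brainstem, was also highest in control replicate 8 (9.15), followed by fructose replicates 4 and 3 (8.04 and 7.83), and had r of 0.774 and 0.538. Of the 8 striatal genes, Penk and Drd1 had the highest r with Camk2d both with and without those arrays, and the part of other regional markers in the result was not tested. Each of the 8 had its highest control signal in control replicate 8, but by unequal margins. Rgs9 was at 8.76 against 7.94 in the next control array, but Drd2 at 8.02 against 8.01, Adora2a at 7.72 against 7.70 and Pde10a at 9.37 against 9.34. Among fructose arrays each was highest in replicate 3 except Drd2, at 7.80 against 7.95 in replicate 4.

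Camk2a had its largest r in size with another list, that of thalamus and brainstem genes (6 of 9 measured). Its r was -0.745 (permutation p = 0.00198, adjusted 0.0515), just outside the threshold, and rho -0.742 (permutation p = 0.00329, adjusted 0.149). After renewed quantile normalization and cyclic loess the adjusted permutation p of r was 0.0577 and 0.0664. The arrays lowest in Camk2a were fructose replicate 4 and control replicate 5 at 12.76 and both replicates 8 at 12.85. Their list means were 7.33, 7.33, 7.34 and 7.69, while the other 9 arrays lay between 7.0 and 7.19. Leaving out control replicate 8, the array with the highest mean of this list, gave r = -0.944 (permutation p = 0.0001, adjusted 0.0078). Leaving out both arrays farthest from the median gave -0.937 (permutation p = 0.00023, adjusted 0.0179). With 1 array left out 2 of 13 cases passed, that without control replicate 8 and that without control replicate 5 (r = -0.738, permutation p = 7e-05, adjusted 0.00546). Within the groups r was -0.945 (fructose, n = 6, exact permutation p = 0.0167, adjusted 0.289) and -0.737 (control, n = 7, exact permutation p = 0.0508, adjusted 0.372), neither of which passed. Camk2g had r = 0.777 with the interneuron list (permutation p = 0.0082, adjusted 0.128), which did not pass. Camk2b had its largest r with the oligodendrocyte and blood lists (0.571 and -0.571, permutation p = 0.0471 and 0.0483, adjusted 0.269 for both), which did not pass either.

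**Figure D4:**
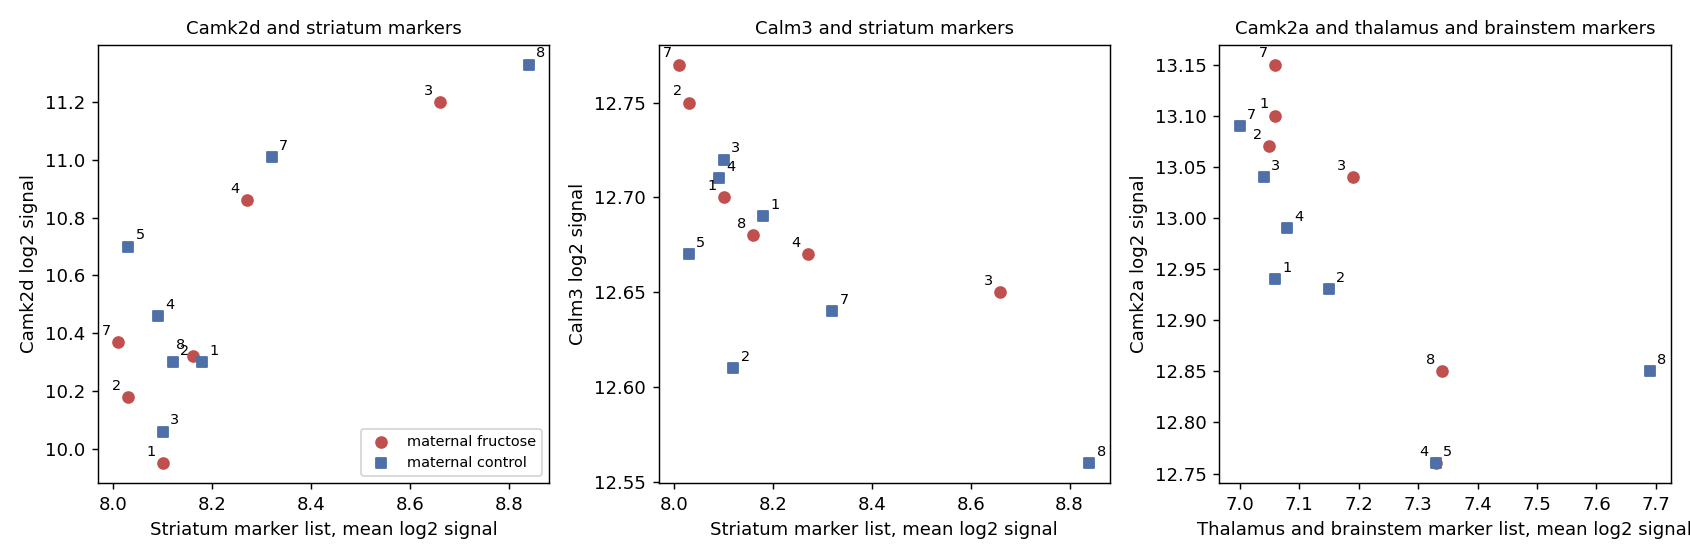
Log2 signal of Camk2d, Calm3 and Camk2a (vertical axes) against the mean log2 signal of a marker list (horizontal axes) on each array (red circles maternal fructose, blue squares maternal control, with replicate numbers). In fructose replicate 3 and control replicate 8, which have the highest striatal list means, Camk2d is the highest and Calm3 the lowest of its group. Camk2a is lowest in the 4 arrays with thalamus and brainstem list means of 7.33 to 7.69.

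**Figure D5:**
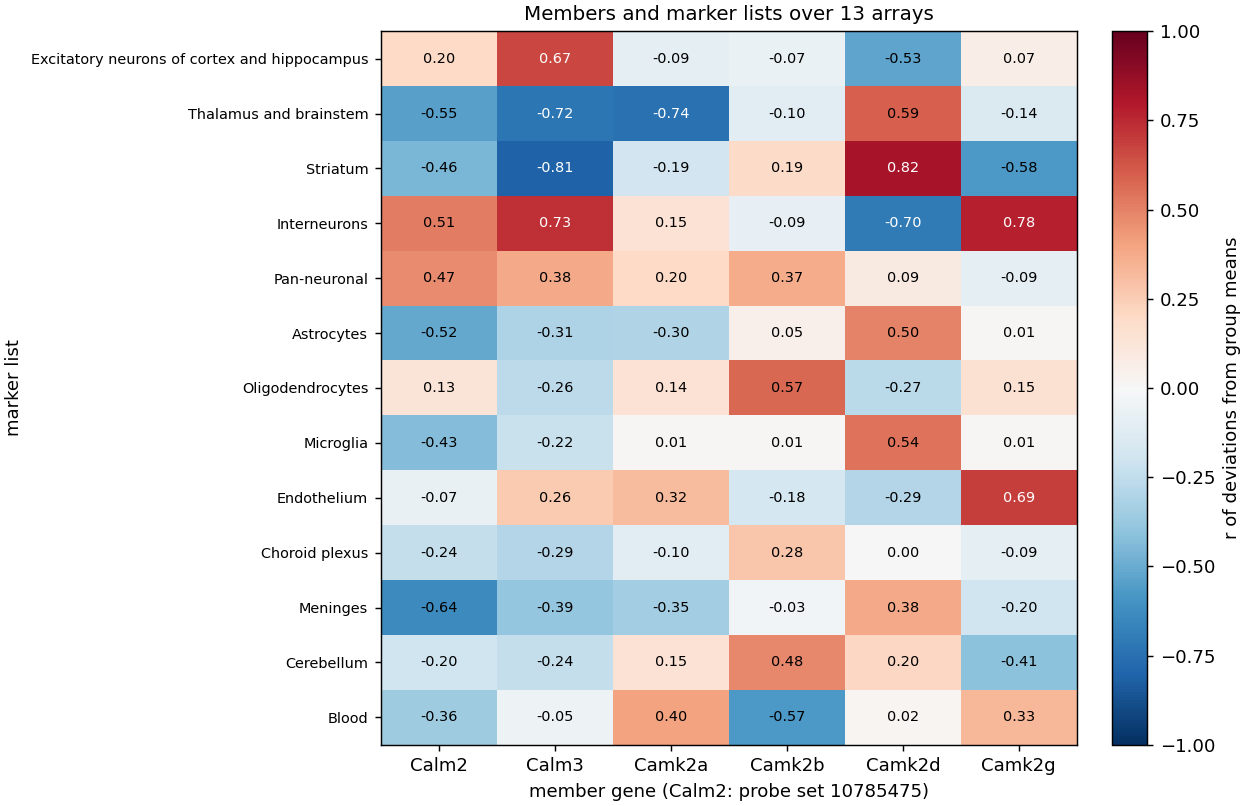
Pearson's r of deviations from the group means between each member gene (columns) and each marker list (rows) over 13 arrays, red for positive and blue for negative. Camk2d and Calm3 have opposite signs in 11 of 13 rows, all but the oligodendrocyte and pan-neuronal ones, and are farthest apart for the striatal list, at 0.82 and -0.81. The deviations of Camk2d and Calm3 have r = -0.707 with each other, so the rows are not separate results. Some of these values lie near 0, such as 0.001 for Camk2d with choroid plexus.

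The genes whose deviations were most like those of a member over the 13 arrays were picked from all probe sets with 1 symbol and are a description. Picking the highest r among so many probe sets over 13 arrays gives high values even for unrelated signals, and how high was not tested. For Camk2d they were Marcks, which encodes a calmodulin-binding membrane protein (r = 0.95), Dner, a neuronal transmembrane ligand of Notch (0.945), and Sdc3, the proteoglycan syndecan 3 (0.942). Without control replicate 8 and fructose replicate 3 these were 0.885, 0.895 and 0.874. Marcks was at 9.70 and 9.39 in fructose replicates 3 and 4, 9.62 and 9.47 in control replicates 8 and 7, and 8.84 to 9.05 in the other 9 arrays. The genes most opposite to Camk2d were the axon guidance receptor Robo3 (r = -0.948), Asah2, a ceramidase (-0.938), and Kcna1, a voltage-gated potassium channel (-0.928). Robo3 was at 6.59 and 6.86 in fructose replicates 3 and 4, against 7.62 to 7.76 in fructose replicates 1, 2, 7 and 8. Control replicate 8 was at 6.45, against 7.02 to 7.61 in the other control arrays. For Camk2a the likest genes were Fbxl16 (0.922), Rasgrf2, an exchange factor for Ras that calmodulin binds (0.917), and Jph3, a junctophilin that couples membrane and endoplasmic reticulum (0.916). For Camk2b they were Sval2 (0.873), Igf1r, the receptor for insulin-like growth factor (0.853), and Akr7a3 (0.846), and for Camk2g Tpbg (0.916), Ggta1l1 (0.902) and Epdr1 (0.902). Calm3 was most like Plekhg5 (0.919), Ubqln4 (0.913) and the potassium channel gene Kcnj6 (0.913). Calm2 by probe set 10785475 was most like the phosphatase gene Dusp7 (0.902), the calcium-activated cation channel gene Trpm4 (0.900) and Cysltr2 (0.892), and most opposite to Rpl21 (-0.938), which encodes a ribosomal protein. By probe set 10940454 it was most like B3galt4 (0.872), Myoc (0.841) and Gsap (0.837), which fell to 0.735, 0.704 and 0.676 without control replicates 1 and 2.

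The wider calmodulin pathway was described from 7 lists of genes, 1 probe set a gene, in which 0 genes were called between the diet groups (0% of all probe sets were). Among calmodulin-dependent kinases, related kinases and the inhibitors of CaM kinase II, 8 of 16 genes were higher in the maternal fructose group, with a median difference of 0.0024. Over all probe sets 54.1% were higher (median 0.0056) and of the bright ones 74.7%, which is the background for the counts of every list. The brightest was Camk2n1, an inhibitor protein of CaM kinase II, at 11.94 ± 0.31 (SD, n = 6) in fructose and 11.96 ± 0.10 (SD, n = 7) in control arrays. The highest and lowest differences were those of Camkk2, the kinase that activates CaM kinases I and IV, at 0.18 ± 0.19 (SE), and of Dapk3, at -0.13 ± 0.06 (SE). Of the calcineurin genes, the calcium and calmodulin dependent phosphatase and its regulators, 6 of 8 were higher (median 0.031), with the catalytic subunit Ppp3ca at 0.09, the regulator Rcan2 at 0.10 and Ppp3r2 at -0.05. Of the other enzymes and pumps regulated by calmodulin, 5 of 11 were higher (median -0.010), with the adenylyl cyclase Adcy1 at 0.18 ± 0.20 (SE) and the plasma membrane calcium pumps Atp2b1 at 0.04 and Atp2b4 at -0.20 ± 0.13 (SE).

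Of the proteins that bind calmodulin and hold it in reserve, 3 of 8 genes were higher (median -0.0086), with Nrgn, which encodes neurogranin of dendritic spines, at 0.05, Marcksl1 at 0.18 ± 0.13 (SE) and Iqcg at -0.09. Substrates and docking partners of CaM kinase II were higher for 12 of 15 genes (median 0.028), from Syn2, which encodes the vesicle protein synapsin 2, at -0.07 to the NMDA receptor subunit Grin2a at 0.11. Of the phosphatases that act on the kinase and their regulators 5 of 7 were higher (median 0.063), with Ppp2ca at 0.06, Ppp1r1b at 0.20 ± 0.16 (SE) and Ppm1e at -0.09. Other EF-hand calcium sensors and buffers were higher for 13 of 19 (median 0.043), with Vsnl1, which encodes visinin-like protein 1, at 0.06, the channel-interacting protein gene Kcnip2 at 0.15 and Calb2, which encodes calretinin, at -0.22 ± 0.22 (SE). The 95% interval of every gene named from these lists included 0. Of the 20 genes named, 17 turned or moved by over 1.5 times in their difference with 1 array left out, the exceptions being Dapk3, Atp2b4 and Ppp2ca. Without control replicate 8, Adcy1 was at 0.013, Atp2b1 at -0.034, Nrgn at -0.0036, Grin2a at -0.0024, Vsnl1 at 0.0039 and Calb2 at -0.017. Without fructose replicate 3, Ppp1r1b was at 0.079 and Marcksl1 at 0.084, and without fructose replicate 4, Camkk2 was at 0.34 and Rcan2 at 0.19. Without control replicates 1 and 2 the numbers of higher genes in the 7 lists, in the order given, were 11 of 16, 5 of 8, 3 of 11, 3 of 8, 10 of 15, 4 of 7 and 12 of 19, against 51.4% of all probe sets. Without control replicates 1 and 2 the medians of the 7 lists, in the order given, were 0.028, 0.022, -0.017, -0.026, 0.0091, 0.056 and 0.030, against 0.0022 for all probe sets.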

How the data were processed

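RNA of 13 brain samples was labelled and hybridised to an Affymetrix rat gene array, and the authors deposited log2 signals for 29214 probe sets; per the submitters' processing notes the tools were RMA, a standard way to normalize arrays and summarise probes, and R 3.0.1. No detection p-value came with the signals, so their height over background was not assessed, and precision is limited by the number of arrays.

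Symbols came from the platform annotation (323 probe sets with several and 13581 with none were not used for naming). The 15633 probe sets with a gene were fitted with limma 3.58.1 in R 4.3.3, maternal fructose minus maternal control, with Benjamini-Hochberg adjustment and 0.05 as the threshold. Correlations used deviations from the group means and 100000 shuffles within groups (all orders for a single group, hence exact), in Python 3.11.15, adjusted over each family, of 1, 21 and 78 relations. For a gene with several probe sets the brightest was used in lists. Genes were named by rule: all members, the brightest and the highest and lowest difference of each pathway list, and the 3 likest genes per member; the genes opposite to a member, the likeness of probe set 10940454, the single striatal genes, Slc17a6 and the pairs of members were added after values were seen. Members and lists were chosen with earlier results of these data known. The scripts were tested on simulated data. Alternatives were renewed quantile normalization, cyclic loess, median centring, array weights, an intensity trend with robust prior, removal of the 30% dimmest probe sets, all probe sets, omission of arrays and the replicate number as a block. Replicate numbers did not pair the samples: of 6 pairs sharing a number, 1 had a correlation of deviations over 0.1.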

Additional observations from a re-analysis of the deposited data

Results flagged for a closer look

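A sample was singled out where its gap to the nearest sample of its group took an unusually large part of the group's range, by Dixon's criterion at 95%. Chance alone would single out about 1 in 20 independent groups, and 13 of 88 were. The groups are not independent, since genes share the same arrays and the striatal list contains Penk and Drd1. Those 2 genes were also added after values were seen, so the count cannot be compared with chance. Among the members, Calm2 probe set 10785475 was lowest in fructose replicate 4 (12.24, next 12.42) and Camk2b highest in control replicate 3 (11.96, next 11.75). Fructose replicate 4 was also lowest for Camk2n1 (11.34, next 11.92) and Ppp3r2 (6.16, next 6.28), and fructose replicate 3 for Adcy1 (10.6, next 11.19). Control replicate 8 was lowest for Adcy1 (10, next 11.01), Nrgn (12.18, next 12.44) and Vsnl1 (12.35, next 12.63). It was highest for Calb2 (8.67, next 7.60), Penk (11.12, next 9.98), Drd1 (8.85, next 7.72) and the striatal marker list (8.84, next 8.32). Control replicate 2 was lowest for Syn2 (11.48, next 11.78).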

How the results depend on the processing

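The limma fit called 0 probe sets under all 22 alternatives, with 225 to 871 at an unadjusted p under 0.05. The 592 recomputed differences of members and named pathway genes all moved by less than 1 SD between replicates. Leaving out 1 array of a group cannot move its mean that far, so for those settings the bound could not fail. It is no measure of robustness, and the differences of Camk2a, Camk2b, Camk2d and some pathway genes changed sign in some settings. With the replicate number as a block, over 12 arrays, 0 probe sets were called, and the differences were 0.165 for Calm2 probe set 10940454, 0.029 for 10785475, 0.050 for Calm3, 0.023 for Camk2a, -0.0064 for Camk2b, -0.097 for Camk2d and 0.060 for Camk2g; 0 of 12 samples correlated best with their own number. The correlation of the Calm2 probe sets was 0.073 to 0.517 with 1 array left out and -0.155 within the fructose group. Of the 78 marker relations 2 passed in the main setting, 0 after renewed quantile normalization, 0 within either diet group alone, 1 without control replicates 1 and 2 (Calm3 with striatum), 1 without the 2 farthest arrays (Camk2a with thalamus and brainstem, not among the 2) and 0 to 3 with 1 array left out, where the single one without fructose replicate 4 was Calm3 with excitatory neurons (r = 0.877, adjusted p = 0.0289 by permutation, against 0.668 and 0.183 over all arrays); these settings have fewer arrays, apart from quantile normalization, for which the cause was not tested. The number of member pairs past the threshold was 2 with renewed quantile normalization and also 2 with cyclic loess, against 0; the cause was not tested. With 13 arrays only large correlations can pass.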
